A study of Mus musculus with 6 samples.

Results

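Haemoglobin genes and their erythroid partners were followed in RNA from cortical neurons of newborn mice, as 9 genes named by symbol: the adult alpha globins Hba-a1 and Hba-a2, the adult beta globins Hbb-bs and Hbb-bt, the embryonic globins Hba-x, Hbb-y and Hbb-bh1, the haem enzyme gene Alas2 and the red cell membrane gene Slc4a1. Of these, 8 had a row among the 35510 genes of the table and Hbb-bh1 was not analysed here. Testing was limited to the 22479 genes whose mean reached 10 normalised counts, which kept 7 members and left out Hbb-y. All mice were wild-type (WT) of the Swiss (RjOrl:SWISS) stock and were studied at postnatal day 0, after plasmid had been electroporated into the embryonic brain at E15.5. The 3 control libraries came from brains given the control plasmid and the 3 sponge libraries from brains given the miR-17-5p sponge, a transcript with binding sites that holds this microRNA away from its targets. Each library pooled about 100000 cells of about 10 brains, so a library is a pool and not an animal. The word FACS in the column names points to flow-sorted cells. Neither the promoter of the plasmids nor the sorting gate is known from the labels, and the level of miR-17-5p was not analysed here.

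Haemoglobin is the oxygen carrier of red blood cells, a tetramer of alpha-type and beta-type globin chains that each hold a haem group. Globin messages are among the most abundant in immature red cells, and mammalian red cells lose their nucleus but circulate for a time with remaining globin message. Embryonic globins are made in the first wave of red cells from the yolk sac and adult globins in fetal liver and marrow. In brain tissue, globin reads are commonly taken as a sign of blood, although low globin expression in neurons has also been described.

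The genes of the set lie at 4 places. Hba-x (32276400 to 32278116), Hba-a1 (32283511 to 32284465) and Hba-a2 (32296489 to 32297298) follow each other on the plus strand of chromosome 11. Hbb-bt (103812524 to 103813996), Hbb-bs (103826534 to 103828096) and Hbb-y (103851749 to 103853216) lie on the minus strand of chromosome 7. Slc4a1 is on chromosome 11 (102348824 to 102366203) and Alas2 on chromosome X (150547375 to 150570638); all positions are on GRCm38, from GENCODE M21, and all 8 are protein-coding genes.

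The promoters of 5 members are shown because Hba-a1, Hbb-bs and Hbb-bt varied together between libraries while Hba-x and Alas2 did not follow them in full. The 130 bases before each RefSeq start (GRCm38.p6) are printed 5′ to 3′ on the gene's strand, with capitals at matches on either strand to CACCC, the box bound by the erythroid factor Klf1, to CCAAT, to TATAA and to GATA, the core of sites bound by Gata1.
Hba-a1 (chr11:32283542-32283671, plus strand): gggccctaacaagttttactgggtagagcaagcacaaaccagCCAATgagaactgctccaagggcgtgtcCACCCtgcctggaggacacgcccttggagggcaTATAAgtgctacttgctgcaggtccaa
Hbb-bs (chr7:103827929-103828058, minus strand): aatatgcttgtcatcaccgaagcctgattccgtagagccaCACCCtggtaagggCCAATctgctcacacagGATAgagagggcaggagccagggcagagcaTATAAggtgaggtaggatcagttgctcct
Hbb-bt (chr7:103813924-103814053, minus strand): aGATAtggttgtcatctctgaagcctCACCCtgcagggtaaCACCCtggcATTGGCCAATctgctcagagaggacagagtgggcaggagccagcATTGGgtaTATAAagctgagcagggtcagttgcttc
Hba-x (chr11:32276470-32276599, plus strand): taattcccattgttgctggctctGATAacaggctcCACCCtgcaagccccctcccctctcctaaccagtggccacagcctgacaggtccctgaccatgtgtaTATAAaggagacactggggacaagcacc
Alas2 (chrX:150547287-150547416, plus strand): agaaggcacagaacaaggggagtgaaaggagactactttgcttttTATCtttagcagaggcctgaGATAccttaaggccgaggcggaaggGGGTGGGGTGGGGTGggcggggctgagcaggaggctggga
CACCC was in the window of all 7 members with an entry in the RefSeq promoter table, and in 33.7% of all 32851 promoters of the same length. CCAAT was found in 5 of the 7 and 22.4% of all, TATAA in 5 and 12.7%, and GATA in 4 and 31.7%. Matches to different motifs did not overlap in the windows of the members. The window of Hba-a2 shared a run of 127 bases with that of Hba-a1, and that of Hbb-bt shared at most 14 bases in a row with that of Hbb-bs. The RefSeq starts used here differ from the outermost GENCODE starts, so each printed window overlaps the GENCODE span of its gene in part or whole.

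The 4 adult globins stood far higher in control library 1 than in any of the other 5 libraries, and none of them passed the test of sponge against control. Hba-a1, the main alpha globin row, measured 16882, 683 and 1680 normalised counts in control libraries 1 to 3 and 1939, 2284 and 1727 in sponge libraries 1 to 3. Hbb-bs, the main beta globin row, measured 13712, 515 and 1116 in the control and 1255, 1593 and 1100 in the sponge libraries. In both genes control library 1 was highest and control library 2 lowest, so the control values enclosed all sponge values. A normalised count is the gene's count divided by 1 factor per library.

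Hbb-bt, the second adult beta globin, measured 926, 43.1 and 88.0 in the control and 107, 119 and 49.5 in the sponge libraries. Hba-a2, the second adult alpha globin, was listed at 44.0, 2.10 and 6.07 in the control and 4.93, 7.29 and 6.18 in the sponge libraries. Control library 1 was again highest and control library 2 lowest in both, and the groups overlapped. Control library 1 exceeded the highest of the other libraries 7.39-fold for Hba-a1, 6.03-fold for Hba-a2, 8.61-fold for Hbb-bs and 7.80-fold for Hbb-bt, and the lowest 20.9-fold to 26.6-fold. Among the other 5 libraries alone, the highest exceeded the lowest 2.75-fold to 3.47-fold.

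**Figure D1:**
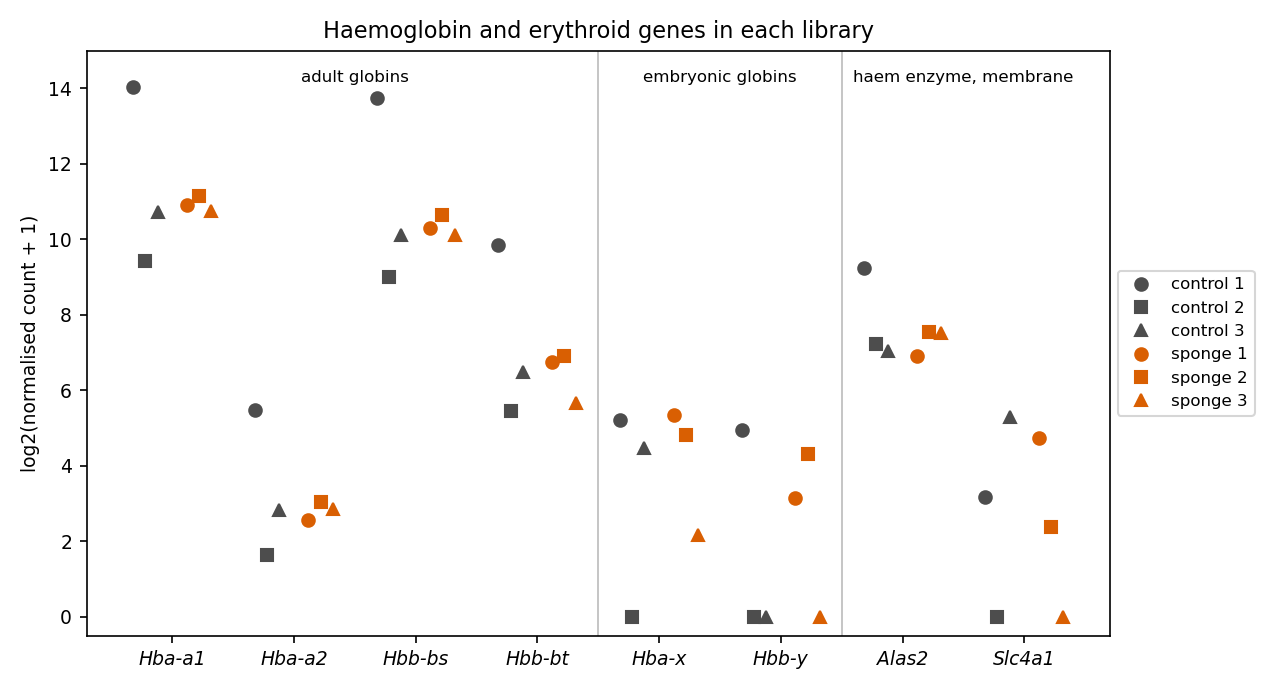
Each point is 1 library, on a log2(normalised count + 1) axis, for the 8 genes with a row in the table; grey marks the 3 control and orange the 3 sponge libraries. Control library 1 is alone at the top for the 4 adult globins and Alas2, with 16882 normalised counts of Hba-a1 against at most 2284 elsewhere, but not for Hba-x or Slc4a1.

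The split of counts between near-identical globin copies is uncertain. The mature transcripts of Hba-a1 and Hba-a2 have 439 words of 50 bases in common, which is 67.5% of those in Hba-a1 and 86.9% of those in Hba-a2. Hbb-bs and Hbb-bt have 381 in common, 65.8% of those in Hbb-bs and 58.3% of those in Hbb-bt, whereas Hba-x and Hbb-y have 0 in common with any other member. How reads that match more than one copy were counted is not given in the sources used here, and mouse strains differ in their beta globin copies. Alpha and beta counts are therefore also given as sums, and the low Hba-a2 row is not a measure of that gene's own level.

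Summed over the 6 globin genes, haemoglobin took 0.0253% of all counts in control library 1. It took 0.00101% and 0.00240% in control libraries 2 and 3, and 0.00267%, 0.00337% and 0.00236% in sponge libraries 1 to 3. Sponge libraries thus lay in a narrow band, while the control libraries spanned a 25.0-fold range around it. The depth behind these values was 115445910 to 138254412 counts per library, and 1182 globin counts in control library 2 was the smallest number. With bulk RNA, more red cells and more globin message per cell cannot be told apart.

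The alpha share of the adult globin counts spanned 53.6% to 60.1% while the amount of globin spanned 25.0-fold. Alpha globin made up 53.6% of the adult globin counts in control library 1 (95% Wilson interval 53.1 to 54.2), 55.1% in control library 2 (52.2 to 57.9) and 58.3% in control library 3 (56.5 to 60.1). In sponge libraries 1 to 3 it made up 58.8% (57.1 to 60.5), 57.2% (55.7 to 58.8) and 60.1% (58.4 to 61.8). The interval of control library 1 lay below those of control library 3 and the 3 sponge libraries, and overlapped that of control library 2. Per group the alpha share was 58.7 ± 1.45% with the sponge and 55.7 ± 2.41% with the control plasmid (SD, n = 3 per group), and 2 of the 3 control libraries lay below all sponge libraries.

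Hbb-bt held 6.33% of the adult beta counts in control library 1 (5.94 to 6.73), 7.72% in control library 2 (5.74 to 10.3) and 7.30% in control library 3 (5.96 to 8.92). In the sponge libraries it held 7.89% (6.58 to 9.43), 6.94% (5.81 to 8.27) and 4.30% (3.33 to 5.55). Sponge library 3 was the lowest, and its interval lay below those of the other 5 libraries. Hba-a2 held between 0.254% and 0.360% of the alpha counts in the 6 libraries, with every interval overlapping the others. These Wilson intervals cover counting error only. Genes with exactly 2 counts outnumbered those with 1 in every library (927 against 425 in control library 1), so counts did not all fall singly and the intervals may be too narrow.

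**Figure D2:**
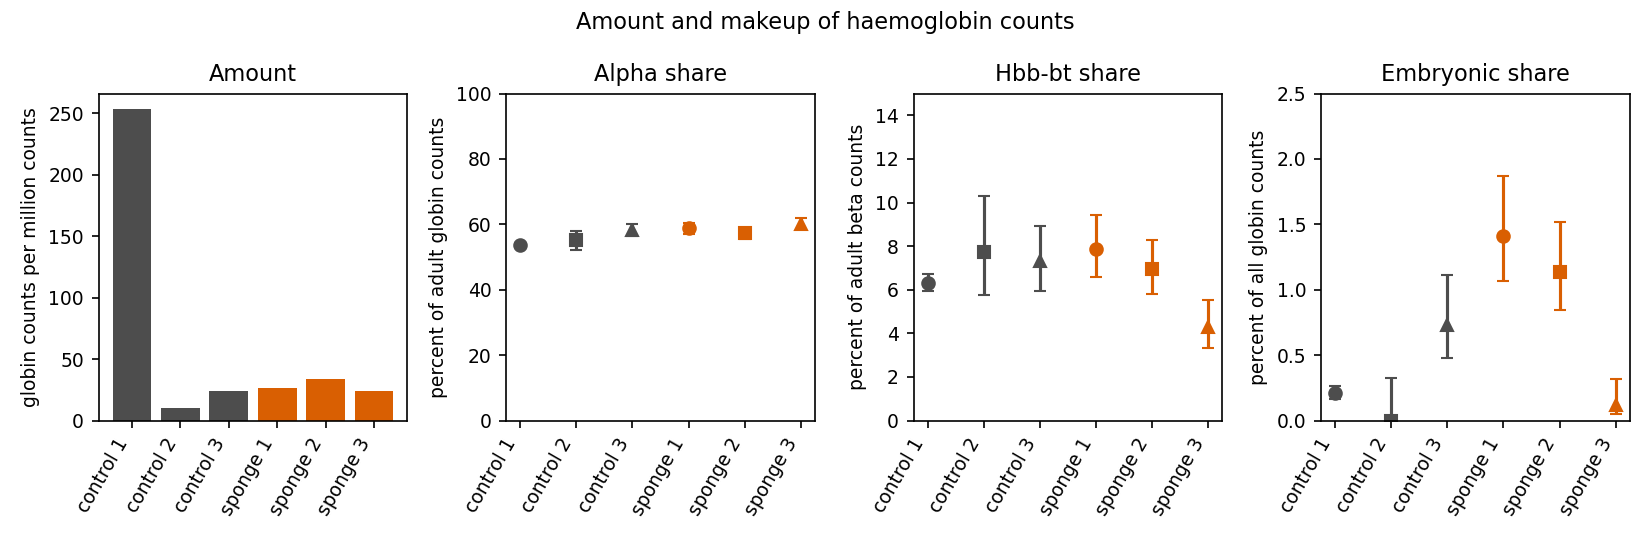
Globin counts in CPM, then the alpha share of adult globin counts, the Hbb-bt share of adult beta counts and the embryonic share of all globin counts, for each of the 6 libraries; bars on the shares are 95% Wilson intervals. The amount reaches 253 in control library 1 and at most 33.7 elsewhere, while the alpha share stays between 53.6% and 60.1%.

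Embryonic globins were near the limit of detection. Hba-x, the embryonic alpha-type chain, measured 36.0, 0 and 21.2 normalised counts in the control and 39.4, 27.1 and 3.53 in the sponge libraries. Hbb-y, an embryonic beta-type chain, measured 30.01, 0 and 0 in the control and 7.88, 18.8 and 0 in the sponge libraries. Its mean was below 10, so it was not tested. Sponge library 1 had the most Hba-x, at a small part of the adult globin of control library 1, control library 1 had the most Hbb-y, and the groups overlapped for both genes.

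Summed, the embryonic pair was highest in control library 1 at 66.0 normalised counts and lowest in control library 2 at 0, the same extremes as for the adult genes, with 3.53 to 47.3 in the other libraries. The pair made up 0.209% of the globin counts in control library 1 (0.164 to 0.265), 0.729% in control library 3 (0.478 to 1.11), 1.41% in sponge library 1 (1.07 to 1.87) and 1.13% in sponge library 2 (0.845 to 1.52). Sponge library 3 had 0.122% (0.0476 to 0.314). In control library 2, 0 of 1182 globin counts were embryonic, with a Wilson upper bound of 0.324%. The 3 counts that a count of 0 allows would be 0.254%. Both limits take counts as falling singly and may be too low. The share was thus higher in control library 3 and sponge libraries 1 and 2 than in control library 1 beyond counting error, in 1 control and 2 sponge libraries, so the difference did not follow the groups. The theta globin genes Hbq1a and Hbq1b of the alpha cluster had a mean below 10 each and were not tested.

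Alas2, the erythroid enzyme of the first step of haem synthesis, followed the adult globins only in part. It measured 607, 149 and 131 normalised counts in the control and 119, 184 and 182 in the sponge libraries. Control library 1 was highest, 3.29-fold above the next, but control library 2, which had the least globin, was not the lowest, and the other 5 libraries differed at most 1.55-fold. For each 1000 normalised globin counts there were 19.2 of Alas2 in control library 1 and 120 in control library 2, with 35.6 to 63.1 in the other 4 libraries. Per kilobase of exon, the Alas2 level in control library 1 was 253 normalised counts, against 20791 for Hba-a1 and 17854 for Hbb-bs.

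Slc4a1, the anion exchanger known as band 3 of the red cell membrane, measured 8.0, 0 and 38.4 normalised counts in the control and 25.6, 4.17 and 0 in the sponge libraries. Control library 3 was highest and control library 1, with by far the most globin, was low. In control library 2 and sponge library 3 a count of 0 allows up to 3 counts if counts fall singly. They did not all do so, so this limit may be too low.

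No member passed the test of sponge against control. With limma, 0 of 22479 genes (0%) passed an adjusted p under 0.05 over all genes, and 650 (2.89%) had an unadjusted p under 0.05, none of them a member; 1.58% of all genes had one in the higher direction. For Hba-a1 the control mean was 6415 ± 9079 and the sponge mean 1983 ± 281 (SD, n = 3 per group), with a log2 fold change of −0.45 ± 1.00 (SE; 95% interval −2.78 to 1.89; limma adjusted p = 0.944). For Hbb-bs the means were 5114 ± 7451 and 1316 ± 252, with a log2 fold change of −0.61 ± 1.04 (limma adjusted p = 0.932). For Hbb-bs the 95% interval ran from −3.04 to 1.81. The SD of the control libraries exceeded their mean in both genes.

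Hbb-bt was at −0.82 ± 1.03 and Hba-a2 at −0.49 ± 1.09 on the log2(normalised count + 1) scale (SE). Alas2 was at −0.52 ± 0.57, Slc4a1 at −0.46 ± 1.69 and the embryonic Hba-x at 0.88 ± 1.49 (SE). The limma adjusted p of the 7 tested members ran from 0.925 to 0.968. In 6 of 7 the estimate was below 0, as it was in 11040 of all 22479 genes tested. Without control library 1, 5 of the 7 changed sign. These 7 include Hba-a2, which reached the mean of 10 only through control library 1. No member had non-overlapping groups (0 of 7), compared with 11.2% of all tested genes.

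In the authors' deposited table, which lists 10812 genes, the lowest with a mean of 1003 normalised counts, Hbb-bs had the lowest log2 fold change of all at −1.96 (p = 0.1095, adjusted p = 0.9954, the authors' values). Hba-a1 was second lowest in the authors' deposited table at −1.69 (p = 0.1528, adjusted p = 0.9954). The same sizes come from the ratio of the group means, whose log2 was −1.96 for Hbb-bs and −1.69 for Hba-a1. Means of log values, which give the single high library less weight, were −0.61 and −0.45 apart.

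Without control library 1 the estimates of the adult globins and Alas2 changed sign. Hba-a1 was then at 0.88 ± 0.39 (95% interval −0.11 to 1.87; limma adjusted p = 0.669) and Hbb-bs at 0.78 ± 0.32 (0.01 to 1.55; limma adjusted p = 0.660), with 2 control and 3 sponge libraries. Hbb-bt was at 0.47 ± 0.48, Hba-a2 at 0.59 ± 1.08 and Alas2 at 0.18 ± 0.30 (SE). None passed, where 2 genes (0.0089%) did among all 22479. Hbb-bs alone among the members had an unadjusted limma p under 0.05, 1 of 7, where 7.53% of all genes did in either direction and 4% in the higher one. Hba-a1 alone had non-overlapping groups, 1 of 7 members against 13.4% of all tested genes with higher values in every sponge library. A single member in each count does not set the members apart from all genes.

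**Figure D3:**
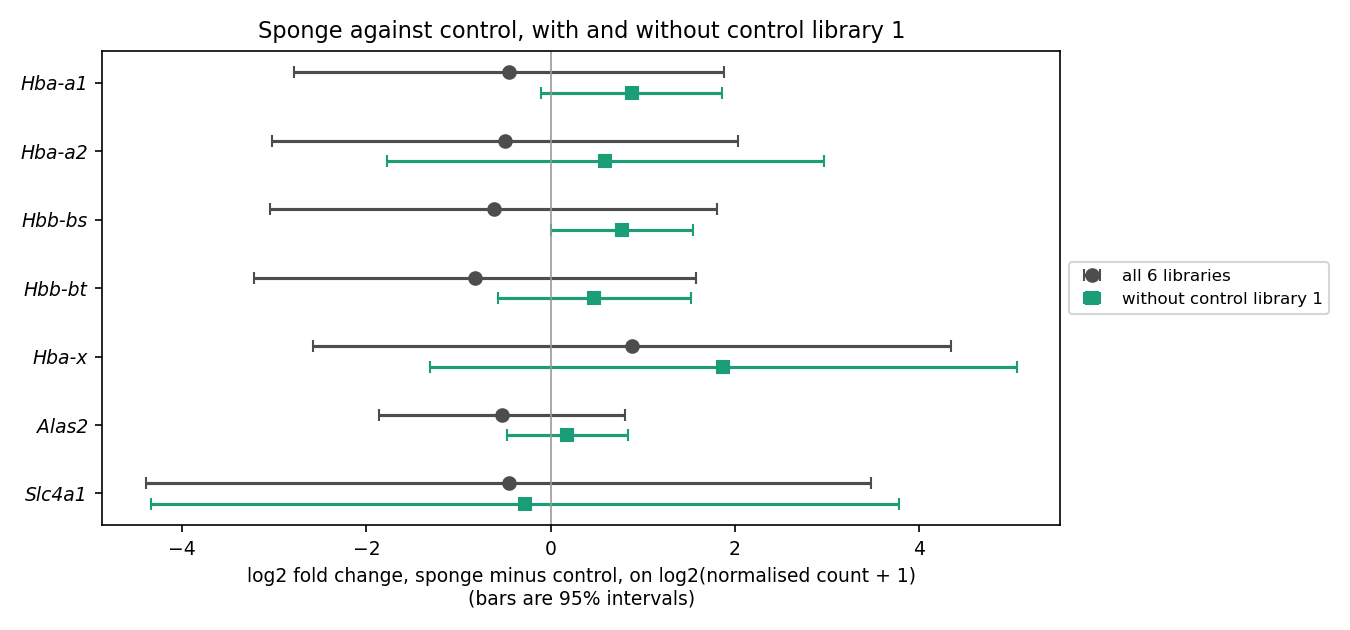
Log2 fold changes, sponge minus control, of the 7 tested members with 95% intervals from limma, over all 6 libraries (grey) and without control library 1 (green). The estimates of the 4 adult globins and Alas2 move from below to above 0, for example Hbb-bs from −0.61 to 0.78, while Hba-x stays above and Slc4a1 below 0.

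Control library 1 differed from the others in other measures as well. Within that library, Hbb-bs had the largest excess over its own median across libraries of 18002 genes with a mean of at least 50, by 3.53 on the log2 scale. Hbb-bt ranked 5 by 3.24, Hba-a1 ranked 6 by 3.21 and Alas2 ranked 48 by 1.87. By exon length, over all tested genes, the median excess in control library 1 was 0.00 for the 1244 genes of 500 to 800 bases, the range of Hbb-bs, Hbb-bt and Hba-a2, with their highest 1% above 2.56. It was 0.20 for genes of 800 to 1500 bases, where Hba-a1 falls, 0.22 for 1500 to 3000 bases and −0.30 for 6000 or more. The part of transcript length in the globin values was not tested beyond this.

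Other genes of red cell formation did not share the size of the globin excess of control library 1. Over 5 lists of haem enzymes, iron handling, red cell membrane, erythroid enzymes and erythroid transcription factors, 39 of 49 genes in the table were tested, 18 were above and 21 below 0 in sponge against control, and 0 passed. Control library 1 was the highest of the 6 in 17 of 39 (43.6%), against 33.8% of all tested genes. The median of these 39 genes in control library 1 was 0.15 above their medians across libraries on the log2 scale, while Hba-a1, Hbb-bs and Hbb-bt were 3.21 to 3.53 above theirs.

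Markers that define red cell precursors were at or near 0 for Gata1 and low for Klf1. Gata1, the transcription factor that commits cells to the erythroid line, measured 0, 2.10 and 0 in the control and 0.986, 0 and 0 in the sponge libraries. Its partner Klf1, which switches on adult beta globin, measured 36.0, 26.3 and 42.5 in the control and 17.7, 45.8 and 28.3 in the sponge libraries. In both genes control library 1 did not stand out, and the groups overlapped. Tal1, a partner of Gata1, measured 84.0, 18.9 and 8.09 in the control and 23.7, 31.3 and 47.7 in the sponge libraries, and Lmo2, which binds Tal1, 822 in control library 1 and 349 to 483 in the others. Nfe2, which drives globin genes through their distal enhancers, measured 12, 4.21 and 8.09 in the control and 15.8, 18.8 and 19.4 in the sponge libraries, without overlap (log2 fold change 1.15 ± 0.66 SE, limma adjusted p = 0.925). Lmo2 and Tal1 were thus highest in control library 1, and Nfe2 was not. The globin chaperone gene Ahsp was not analysed here.

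Genes of haem and iron handling that other cells also use were measured at high levels. Ftl1, the ferritin light chain, measured 125819 in control library 1 and 54040 to 67156 in the other libraries, and Fth1, the ferritin heavy chain, 62700 against 30690 to 36353. Prdx2, a peroxiredoxin abundant in red cells and in neurons, measured 91792 against 41160 to 49189. Control library 1 was highest in all 3, by 1.87-fold, 1.72-fold and 1.87-fold over the next library. Slc11a2 and Slc25a37, which carry iron into the cytosol and into mitochondria, were instead lowest there, at 2810 against 3808 to 5004 and at 1035 against 1442 to 2139. Of the 8 iron genes, 3 were highest in control library 1, where 33.8% of all tested genes were highest. Prdx2, Slc11a2 and Slc25a37 were named after their values were seen.

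The 8 haem synthesis enzymes other than Alas2 ran from −0.30 for Ppox (± 0.14, SE), which makes protoporphyrin, to 0.28 for Cpox (± 0.16), 4 above and 4 below 0. Of the red cell skeleton genes, Tmod1, which caps actin filaments, was at −0.34 ± 0.19 and Sptb, erythroid beta spectrin, at 0.30 ± 0.18 (SE), and neither passed. Without control library 1, Cpox was at 0.15, Tmod1 at −0.16 and Sptb at 0.14. Cat, the catalase gene, was at 0.30 ± 0.13 and Tspo2, an erythroid membrane protein gene, at −1.80 ± 0.62 (limma adjusted p = 0.925 for both). Tspo2 measured 34.0, 35.8 and 52.6 in the control and 21.7, 10.4 and 5.30 in the sponge libraries, without overlap. In all, 5 of the 39 genes had non-overlapping groups (12.8%, against 11.2% of all tested genes). These 5 include Nfe2, which reached the mean of 10 only through the sponge libraries.

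Globins of other tissues and factors of the globin switch were also read. Cygb, cytoglobin of fibroblast-like cells and some neurons, measured 2177, 978 and 1156 in the control and 949, 1349 and 1034 in the sponge libraries. Ngb, neuroglobin, measured 181, 136 and 117 in the control and 126, 93.8 and 127 in the sponge libraries. Bcl11a and Sox6, which silence embryonic globins in red cells and are also genes of cortical neurons, measured 37750 to 48329 and 7244 to 16568 over the 6 libraries. Neither passed, and Sox6 was at 0.52 ± 0.24 (limma adjusted p = 0.925), and at 0.22 without control library 1, where it was lowest.

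Several neutrophil genes, but not all of those listed, were detected mainly in control library 1, the library with the most globin. S100a8 and S100a9, which form calprotectin, measured 42.0 and 86.0 there, 2.02 and 10.1 in control library 3, and 0 in the other 4 libraries. Ngp measured 97.0 there and at most 2.08 elsewhere. Ltf and Lcn2, named after their values were seen, measured 48.0 and 24.0 there, and elsewhere Ltf was at 0 and Lcn2 at most 9.86. Other genes of this list of 10 were not highest there. Mpo and Elane were at most 3.94 in every library and Csf3r was at 0 in control library 1. S100a9 and Ngp reached the mean of 10 only through control library 1, so no summary of the tested genes of this list is given. The list summed to 489 to 832 in the control and 430 to 603 normalised counts in the sponge libraries, most of it Prtn3.

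Among markers of other cells, endothelial genes were highest in control library 1 in 8 of 10 cases, against 33.8% of all tested genes. Their sum was 1767 to 6465 normalised counts in the control and 2163 to 3836 in the sponge libraries. The endothelial claudin Cldn5 measured 2055, 387 and 449 in the control and 817, 475 and 919 in the sponge libraries. Microglia genes were highest in control library 1 in 11 of 12 cases, against the same 33.8%. They summed to 4282 to 8355 in the control and 4821 to 5518 in the sponge libraries. Cx3cr1 of microglia, however, was highest in sponge library 2, at 258 against 219 in control library 1. Platelet genes summed to 8805 to 16129 and 8136 to 8664, nearly all of it Gp1bb, while the platelet factor Pf4 was at 6.31 or below in every library. Lymphocyte genes summed to 285 to 550 in the control and 230 to 300 in the sponge libraries, nearly all of it Lck. Pericyte and meningeal genes were highest in sponge library 1 in 6 of 9 cases, against 17.6% of all tested genes. They summed to 13077 to 14125 in the control and 13683 to 18176 in the sponge libraries. The part of any of these cells in the globin values was not tested.

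**Figure D4:**
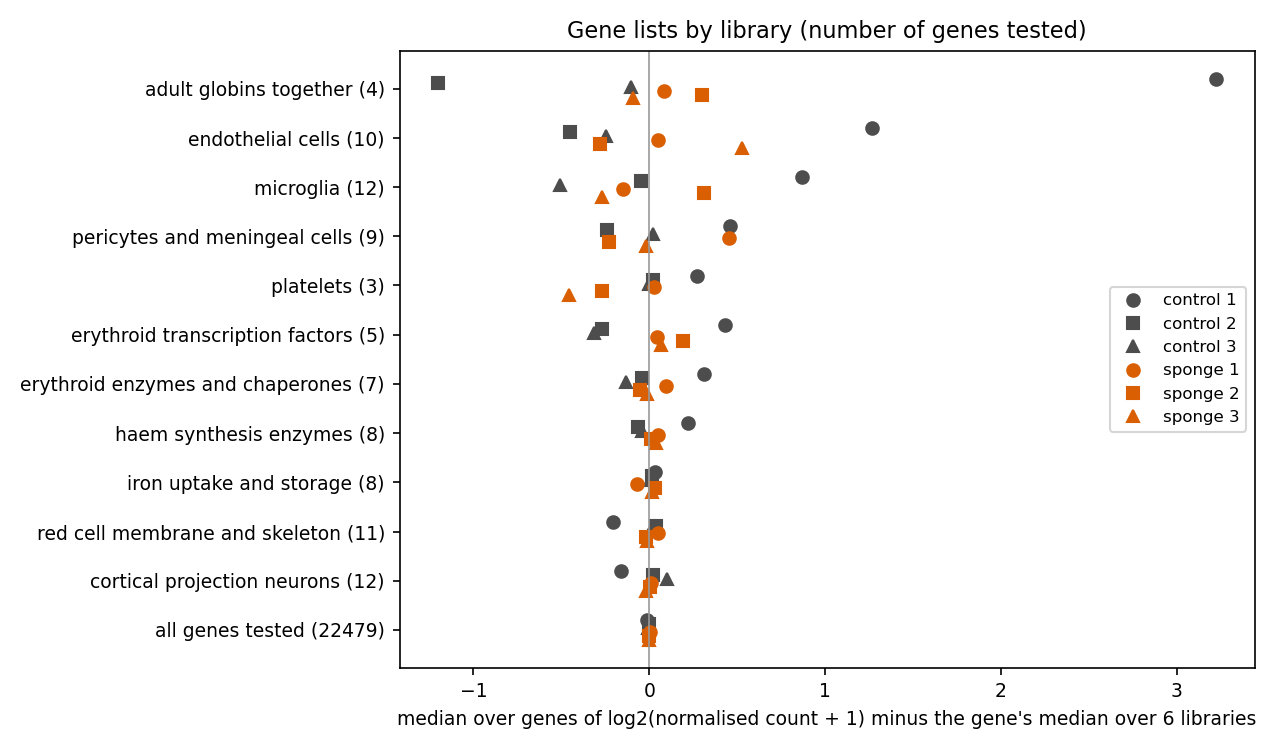
For each of 11 gene lists and all tested genes, the median over its tested genes of log2(normalised count + 1) minus the gene's median over the 6 libraries; grey points are control and orange points sponge libraries. Control library 1 is farthest out for the adult globins (3.22, including Hba-a2, which reached the mean of 10 only through that library) and is at most 0.43 above 0 in the 5 lists of red cell formation.

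Projection neuron genes were counted in every library, which does not show how pure the libraries were. Tubb3, a tubulin of neurons, measured 126803 to 207104 normalised counts in the control and 130766 to 146370 in the sponge libraries. The 12 projection neuron genes were all tested. Control library 1 was highest in 1 of them, Tubb3, against 33.8% of all tested genes, and lowest in 6. The sum of the 12 was 504216 there and 496468 to 536644 in the others, but without Tubb3 the other 11 summed to 297112 there and 359298 to 388288 elsewhere, so control library 1 was the lowest. The part of this difference in the globin values was not tested.

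The genes outside these lists whose pattern over the 6 libraries was most like the adult globins, by Pearson's r on log2(normalised count + 1), were Alg1 (0.999), Cd151 (0.997), Snhg8 (0.993), Ethe1 (0.993) and Cenpw (0.992), out of 14003 candidates with a mean of at least 50. The measure ignores size: Alg1 measured 2970 in control library 1 and 1814 to 2189 elsewhere, a span far narrower than that of Hba-a1. In all, 250 genes had an r above 0.95. Over the 5 libraries without control library 1, a setting chosen after seeing the data, Alg1 was again first (0.999), and the other 4 genes were different ones, Mfn2, Spata3, Myo5a and Acot4.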

How the data were processed

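Messenger RNA libraries were made from 50 ng of total RNA with a stranded ligation kit, per the labels' protocols. STAR 2.7.6a, DESeq2 1.30.1, mm10 and GRCm38 are named in the submitters' processing notes; no source used here gives the counting tool, strand setting or annotation. Values deposited by the authors are linear signal: normalised counts, that is counts over 1 factor per library. Dividing each column by its smallest step gave whole numbers (largest gap 9.55e-09), whose sum was taken as the depth. For control libraries 1 and 3 the step lies so near 1 (1.00026 and 1.0112) that a check of the recovered counts did not accept them, so the counts, depth and Wilson intervals of those libraries rest on the step alone. The authors' deposited table holds log2 fold changes and p-values, per the file headers.

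In R 4.3.3, limma 3.58.1 was fitted to log2(value + 1) of genes with a mean of at least 10 (trend, robust, two-sided, Benjamini-Hochberg over 22479 genes, threshold 0.05). The fit was tested on simulated data in which no library stood apart, so a library such as control library 1 was not covered. Libraries are the replicates; nothing says that they came from separate litters, so p-values measure only the spread between libraries. The planned count models were not run because the check did not accept the recovered counts of control libraries 1 and 3. The members, the 19 lists and the tests were chosen with earlier results of these data known. Named genes were all members, up to 3 genes of smallest p per list, 10 defining markers (some not reported here), and the 5 genes most like the adult globins; most of these are in the text, and other list genes named there were chosen after their values were seen. Of 35510 identifiers, 35389 were found in GENCODE M21, which gave exon lengths and positions. Python 3.11.15 and scipy 1.17.1 computed Wilson intervals. Alternatives changed the pseudocount, filter, scaling, weights, block and libraries.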

Additional observations from a re-analysis of the deposited data

How the results depend on the processing

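No member passed under any alternative run. Between 0 and 2 genes of all tested were called higher, and 0 lower, when 1 library was left out; array quality weights called 3 higher and 1 lower. With those weights the log2 fold change was 1.13 for Hba-a1, 0.90 for Hba-a2, 0.97 for Hbb-bs and 0.56 for Hbb-bt. It was 0.14 for Alas2 and 0.77 for Slc4a1. All of these were of opposite sign to the fit with equal weights. Hba-x moved from 0.88 to 2.85 (95% interval 0.31 to 5.39, limma adjusted p = 0.597). Under these weights, that was the only member interval that left out 0. Leaving out 1 library gave ranges of −1.43 to 0.88 for Hba-a1, −1.34 to 0.59 for Hba-a2, −1.59 to 0.78 for Hbb-bs, −1.73 to 0.47 for Hbb-bt and −0.92 to 0.18 for Alas2, each positive only without control library 1. Hba-x ran from −0.73 (without control library 2) to 1.87, and Slc4a1 from −1.87 to 0.78, positive without control library 3 (0.78) or sponge library 3 (0.73). The log2 ratio of mean haemoglobin shares was −1.78 in all and ran from −2.31 to 0.71, the last without control library 1; the alpha share difference ran from 2.02 to 4.37 percentage points. The pseudocounts, the filter and scaling to equal totals (chosen after seeing the data) changed no sign. With the replicate number as a block, 0 genes were called and the members' limma adjusted p ran from 0.971 to 0.987. Deviations of same-numbered libraries correlated at 0.00957, 0.00544 and −0.0532, and those of differently numbered libraries at −0.0539 to 0.0711. No signal shared by number was seen, but these values cannot show whether same-numbered libraries were handled together. The planned TMM scaling and count-model tests were not run. Few counts limit Hba-a2, Slc4a1 and the embryonic globins.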
